A study of Mus musculus with 8 samples.

Results

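The 48 genes described here are the protein-coding neighbours of Cpeb4 on mouse chromosome 11. They were chosen by position alone, as the protein-coding genes of either deposited table whose span on the mm10 build lies between 26.87 and 36.94 Mb, 5 Mb to either side of Cpeb4, without Cpeb4 itself, Stc2, Hba-a1 and Hba-a2. They are 48 of the 24375 genes found in at least 1 of the 2 tables, and 46 of them are in both. The series holds 8 RNA-seq libraries in 4 groups of 2, from livers labelled Cpeb4 KO or Wild-type. In 1 preparation of each genotype total RNA was extracted with TRIzol from flash-frozen liver, and in the other RNA came from endoplasmic reticulum (ER) isolated with a kit from the livers of mice fasted overnight. Strain, age, sex, the kind of Cpeb4 allele, the tissue in which Cpeb4 was removed and the feeding state behind the total liver RNA are not given in the labels. Separate mice behind the paired libraries of a group are not stated either, so each p reflects spread between the libraries at hand, which may be technical.

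A knockout mouse made by gene targeting carries more than the altered gene. DNA close to the target is inherited together with it, so a line made in cells of 1 strain and crossed to another keeps a segment of the first strain's chromosome around the target, and its genes are called passengers. A selection cassette or a deletion can also alter the transcription of neighbours. The genes beside a target are therefore the ones read first when a knockout is compared with wild-type animals. Cpeb4 encodes an RNA-binding protein of the cytoplasmic polyadenylation element binding family, which controls poly(A) tails and thereby translation, and its neighbours have no shared function. They include a ribosomal protein, the nucleolar chaperone nucleophosmin, an ER-shaping reticulon, a Hippo pathway scaffold, embryonic globins and several genes of nervous tissue.

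The deposited tables hold the authors' comparison of the genotypes, with 1 log2 fold change, standard error (SE) and Wald p per gene. Neither names its RNA preparation, so they are told apart by size, the larger table with 23634 genes and the smaller with 21201. A positive fold change is read as higher in the knockout and a negative one as lower, which rests on the sign of Cpeb4. The fold changes are moderated, which draws those of thinly counted genes towards 0. The mean counts are written with up to 15 significant digits, and from them the whole reads in each of the 4 libraries behind a table were solved. Of these, 2 lie on the numerator side of the fold change and 2 on the denominator side, and none was assigned to a named sample. Values per library below are reads divided by that library's relative depth, between 0.717 and 1.26 for the larger table and between 0.839 and 1.64 for the smaller. The genes solved held 5264526 to 10384657 reads per library. The 6 hepatocyte markers had means from 59383 to 1307220 counts over both tables.

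Cpeb4 (ENSMUSG00000020300, GRCm38 chromosome 11, 31872211 to 31935634, plus strand) was lower on the numerator side of both tables. In the larger table its normalised reads were 506 and 580 in the numerator libraries and 1511 and 1657 in the denominator libraries. In the smaller table they were 193 and 225 against 689 and 634. The 2 sides were far apart in both, and the log2 ratio of their means was -1.54 and -1.66. The authors' deposited tables give moderated log2 fold changes of -1.16 ± 0.11 (SE, DESeq2 adjusted p = 3.18e-24) and -1.10 ± 0.13 (adjusted p = 2.30e-12).

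None of the neighbours passed the authors' test. Genes with an adjusted p are called tested here, although members without one have a Wald p too. In the authors' deposited larger table, members abundant enough to have an adjusted p numbered 31, and 0 of the 31 passed 0.05, where 0.296% of all 14180 tested genes did. In the deposited smaller table, the count was 0 of 29, where 0.266% of 11661 passed. The lowest adjusted p of a member was 1.00 in the larger and 0.999 in the smaller table (DESeq2, Benjamini-Hochberg). At an unadjusted Wald p under 0.05 the counts were 0 of 31 in the deposited larger table, beside 3.62% of all tested genes, and 1 of 29 in the smaller, beside 4.11%. That 1 member was Wwc1.

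The members' fold changes were small. Their range in the authors' deposited larger table was -0.20 to 0.06, and in the smaller -0.24 to 0.11. The median size, whatever the sign, was 0.05 in both tables, against 0.05 and 0.07 over all tested genes. All 31 and all 29 intervals (95%, from the authors' SE) lay within 0.5 of 0 on the moderated log2 scale, and the bound farthest from 0 belonged to Wwc1 at 0.40 and 0.47 below 0. A member of median SE needed a moderated log2 change of 0.41 (larger) or 0.47 (smaller) to reach the authors' smallest called Wald statistic. Smaller passenger effects would therefore not have been called here. These sizes do not carry over to ratios of reads without moderation, which can be larger and still not be called. In the larger table Eml6 had such a log2 ratio of -0.60, but a moderated change of -0.10, and was not called. The plot of fold change against distance shows the members near the 0 line on both sides of Cpeb4.

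**Figure D1:**
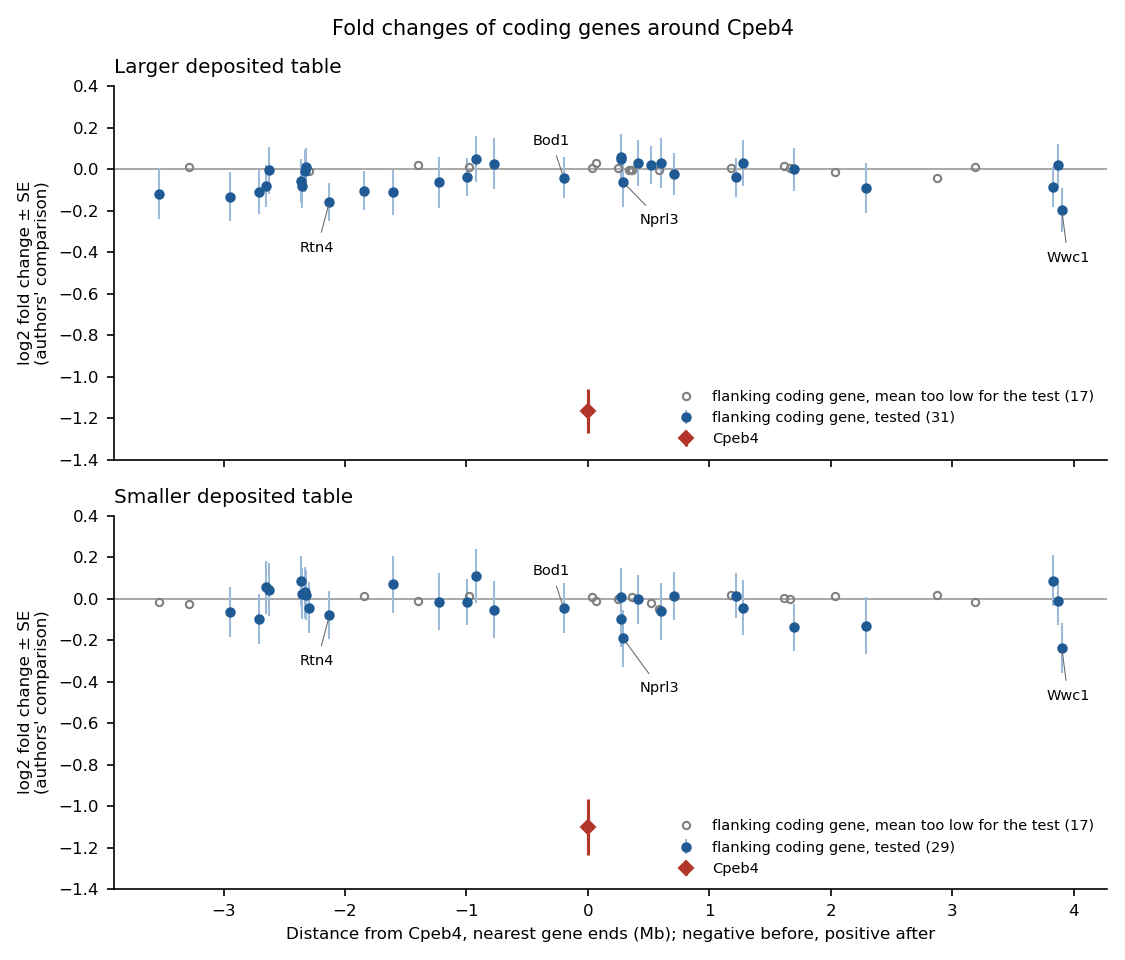
Moderated log2 fold change (authors' value, bars ± SE) of each neighbour against its distance from Cpeb4 in Mb, with one panel per deposited table; filled points have an adjusted p, open points were too thinly counted for one, and the red diamond is Cpeb4. The neighbours lie between -0.24 and 0.11, while Cpeb4 lies at -1.16 and -1.10.

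More members lay below 0 than above it. Of the 31 tested members, 21 (67.7%) were below 0 in the authors' deposited larger table, beside 50.4% of all tested genes. In the smaller it was 17 of 29 (58.6%), beside 49.7%. The member medians were -0.04 and -0.01, while those of all tested genes were -0.00 and 0.00. On the rest of chromosome 11, the deposited tables hold 54.3% and 57.8% of tested coding genes below 0, with medians of -0.01 and -0.02. The Wald statistics of the members spread less than those of all tested genes, with an SD of 0.634 against 0.901 in the deposited larger table and of 0.652 against 0.941 in the smaller.

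**Figure D2:**
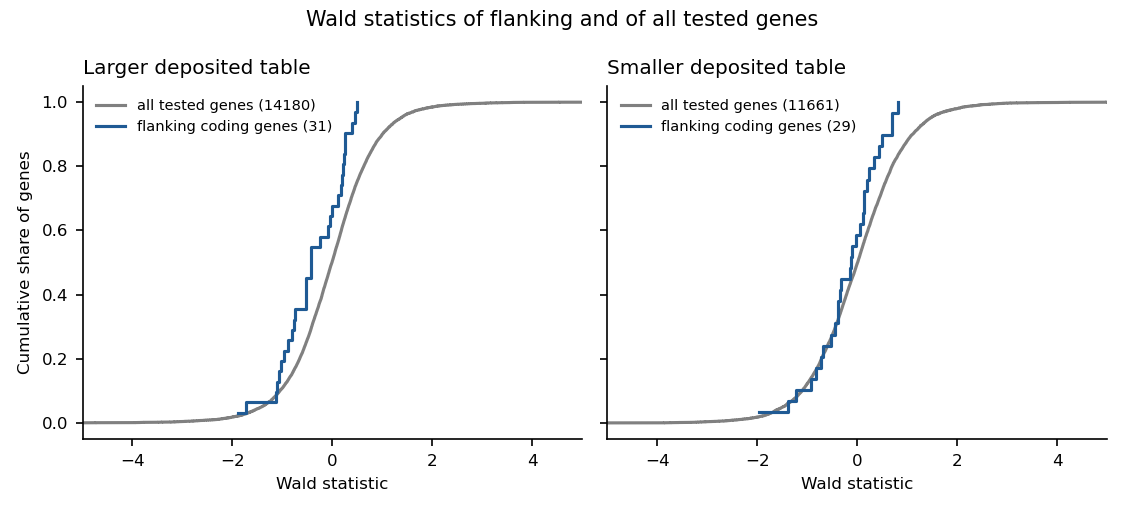
Cumulative share (fraction of genes) of the authors' Wald statistics for the tested neighbours and for all tested genes, one panel per deposited table. The members' statistics end at -1.89 and 0.50 in the larger table and at -1.96 and 0.82 in the smaller, well inside the range of all tested genes.

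The libraries behind these values were solved for 27 of the 31 and 25 of the 29 tested members. Of the 27 members solved in the larger table, 11 had numerator and denominator libraries that did not overlap, and in all 11 the numerator was the lower side. That share, 40.7%, compares with 37.3% of all tested genes solved in that table for either direction and with 19.6% for the numerator lower. On the rest of chromosome 11 the numerator was wholly lower for 175 of 765 coding genes. Of the 25 in the smaller table, 9 did not overlap, beside 39.2% of all tested genes solved. In 7 of these the numerator was lower, beside 20.5% of all, and in 2 it was higher. For the rest of chromosome 11, the numerator was wholly lower in the smaller table for 192 of 700 coding genes. Counted without regard to direction, the members were near the background of each table, while in the larger table they lay to the lower side more often than all genes did, a difference that was not tested. The ratios computed from these reads carry no moderation, and their member medians were -0.10 and -0.04 on the log2 scale.

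**Figure D3:**
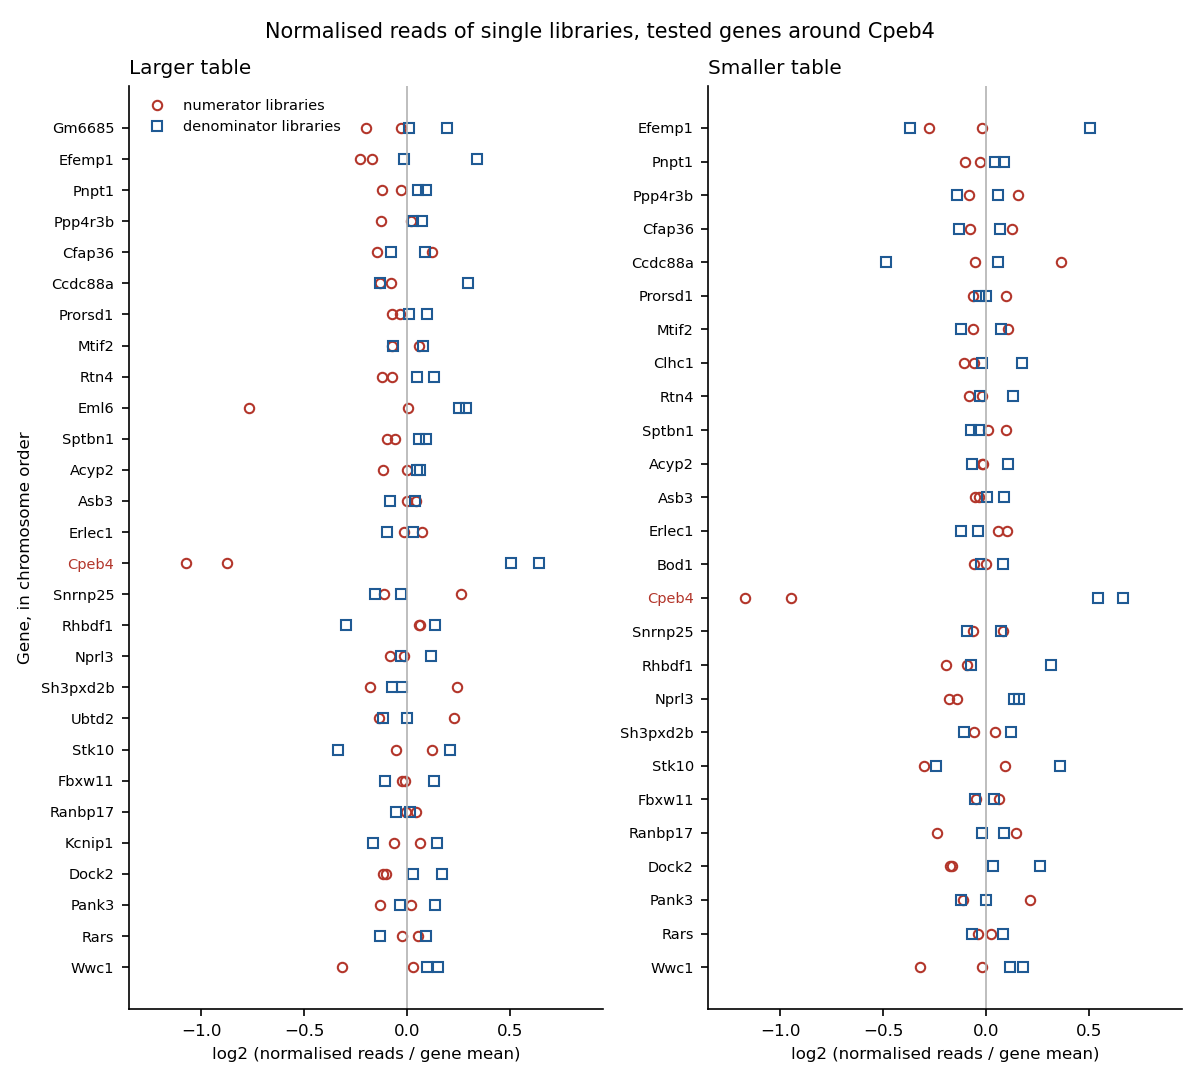
Log2 of each library's normalised reads over the gene's mean for the members solved, in chromosome order, with numerator libraries as circles, denominator libraries as squares and Cpeb4 in red; one panel per table. The circles and squares of Cpeb4 stand apart in both panels, while those of most neighbours mix, with 16 overlapping members in each table.

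The nearest coding genes give the most direct view of the locus. On the side of lower coordinates the nearest member is Bod1 (ENSMUSG00000044502, 31665181 to 31671885, minus strand), whose protein acts in chromosome attachment at cell division, 0.200 Mb away. The authors' deposited tables give it moderated log2 fold changes of -0.04 ± 0.10 (larger) and -0.05 ± 0.12 (smaller). In the smaller table its normalised reads were 1003 and 964 in the numerator and 1064 and 988 in the denominator libraries, so the sides overlapped. Beyond Bod1, the ER lectin Erlec1, which binds misfolded glycoproteins, was at 0.05 ± 0.11 and 0.11 ± 0.13 in the deposited tables. Its reads were 666 and 627 against 591 and 647 in the larger table. In the smaller they were 466 and 453 against 423 and 401, where both numerator libraries were the higher ones. Asb3, a substrate receptor of a ubiquitin ligase, spans the whole of Erlec1 on the opposite strand, so reads of these genes may be mixed. Asb3 had 231 and 238 against 218 and 237 reads in the larger table. In the smaller it had 268 and 265 against 275 and 291, where the numerator was just lower. Psme4, the proteasome activator PA200, had deposited means of 4812 and 4502 counts and log2 fold changes of -0.04 ± 0.09 and -0.02 ± 0.11. Gpr75, an orphan receptor, had too few reads for an adjusted p, with deposited means of 1.58 and 0.450 counts.

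On the side of higher coordinates the nearest member, 4930524B15Rik at 0.030 Mb, had 1 read in each whole table. Next come Nsg2, a neuronal endosomal protein, and the interleukin receptor gene Il9r, with deposited means of 3.49 and 1.00 counts in the larger table and 0.575 and 1.64 in the smaller. The nearest abundant genes here were Snrnp25, a subunit of the minor spliceosome, at 0.270 Mb and Rhbdf1, an inactive rhomboid that guides protein traffic from the ER, at 0.274 Mb. Snrnp25 had 81.7 and 63.1 reads in the numerator against 61.2 and 66.9 in the denominator libraries of the larger table, and 116 and 129 against 114 and 128 in the smaller. Rhbdf1 had 146 and 146 against 154 and 114 reads in the larger table, with overlap. In the smaller it had 64.4 and 69.1 against 70.1 and 91.8, so the sides were just apart. Their deposited log2 fold changes were 0.06 ± 0.11 and 0.01 ± 0.14 for Snrnp25, and 0.05 ± 0.12 and -0.10 ± 0.13 for Rhbdf1.

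Nprl3 (ENSMUSG00000020289, 32225628 to 32267707, minus strand) lies 0.290 Mb away and encodes a subunit of the complex that restrains mTOR signalling when amino acids are scarce. Its introns are known in mammals for enhancers of the alpha globin genes beside it. In the smaller table it had 257 and 250 reads in the numerator against 317 and 311 in the denominator libraries, without overlap, and the authors' deposited log2 fold change was -0.19 ± 0.14 (unadjusted Wald p = 0.165, DESeq2). In the larger table it had 328 and 312 against 359 and 325 reads, which overlapped, and the deposited value was -0.06 ± 0.12. The adult alpha globin genes that follow it, Hba-a1 and Hba-a2, are no members. Their deposited log2 fold changes were -0.30 and -0.30 in the larger and -0.42 and -0.41 in the smaller table, with adjusted p from 0.170 to 0.337 (DESeq2) and unadjusted Wald p from 0.000745 to 0.00318 in the authors' tables. The beta globin genes Hbb-bt and Hbb-bs, erythroid markers away from Cpeb4, were at -0.30 and -0.29 in the deposited larger table and at -0.39 and -0.36 in the smaller, none past the test. The embryonic and theta globin genes among the members, Hba-x, Hbq1b and Hbq1a, had 1 read each in the larger table, and Hbq1a had 1 in the smaller.

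Wwc1 had the lowest moderated log2 fold change of the tested members in both of the authors' deposited tables. The gene (ENSMUSG00000018849, 35838400 to 35980527, minus strand) encodes KIBRA, a scaffold that activates the Hippo kinases, and lies 3.90 Mb from Cpeb4. In the larger table its normalised reads were 2054 and 2612 in the numerator against 2838 and 2737 in the denominator libraries, and in the smaller 1279 and 1572 against 1728 and 1806. Both numerator libraries were below both denominator libraries in each table, with log2 ratios of -0.26 and -0.31. On that unmoderated scale Eml6 (-0.60) and Efemp1 (-0.37) were lower in the larger table, and Dock2 (-0.32) in the smaller. The authors' deposited log2 fold changes were -0.20 ± 0.10 (unadjusted Wald p = 0.0588, DESeq2) and -0.24 ± 0.12 (p = 0.0497), and neither passed after adjustment.

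Among the genes of membranes, cytoskeleton and cell division, 7 of 9 tested members of the authors' deposited larger table and 6 of 9 of the smaller were below 0, with medians of -0.06 and -0.04, and none was called. Rtn4 (29692947 to 29744331, plus strand), the Nogo reticulon that bends ER membrane into tubules, had 2130 and 2199 against 2539 and 2393 reads in the larger table, where the sides did not overlap. In the smaller table its reads, 1691 and 1766 against 1751 and 1959, overlapped. The authors' deposited log2 fold changes of Rtn4 were -0.16 ± 0.09 (unadjusted Wald p = 0.0845, DESeq2) and -0.08 ± 0.12. Sptbn1, the beta spectrin of the membrane skeleton, went opposite ways. It had 569 and 553 against 632 and 616 reads in the larger table, with the numerator lower, and 316 and 297 against 287 and 280 in the smaller, with the numerator higher. Eml6, a microtubule-binding protein, had 34.0 and 19.9 against 41.3 and 40.4 reads in the larger table, where it was among the most thinly counted of the tested members. The actin-binding Ccdc88a, the kinase gene Stk10, the podosome scaffold gene Sh3pxd2b and the cilium gene Cfap36 belong to this group too, as do Clhc1, tested in the smaller table alone, and Spdl1, tested in neither.

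Genes of the protein and RNA machinery include the 2 members with the highest means of the larger table. The authors' deposited tables have 4 of 7 tested members below 0 (larger) and 2 of 7 (smaller), with medians of -0.01 and 0.01. Rps27a, which encodes ubiquitin fused to a ribosomal protein, had deposited means of 7973 and 14546 counts and log2 fold changes of 0.01 ± 0.09 and 0.02 ± 0.12. Npm1, nucleophosmin, had means of 5952 and 8436 counts and deposited changes of -0.04 ± 0.09 and 0.01 ± 0.11. Both share part of their sequence with other annotated genes (28.5% and 29.4% of their 31-base words), so the authors' counting could split their reads. Rars, the arginyl tRNA synthetase gene, was at 0.02 and -0.01 in the deposited tables. Pnpt1, a polynucleotide phosphorylase of mitochondria, had 749 and 800 against 845 and 868 reads in the larger and 876 and 919 against 966 and 998 in the smaller table. Its numerator libraries were thus the lower ones in both tables, with deposited log2 fold changes of -0.11 ± 0.10 and -0.10 ± 0.12. The others of the group were Snrnp25, the mitochondrial initiation factor gene Mtif2 and Prorsd1.

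Protein breakdown and ER quality control had 2 of 6 tested members below 0 in the authors' deposited larger table and 3 of 5 in the smaller, with medians of 0.02 and -0.02. Beside Erlec1, Asb3, Psme4 and Rhbdf1 the group holds Fbxw11, an F-box protein that selects substrates for ubiquitination, at -0.02 and 0.01 in the deposited tables, and Ubtd2, tested in the larger table alone at 0.02. The 4 genes of metabolism and nutrient signalling were all below 0 in the deposited larger table, with a median of -0.07, and 2 of 4 were below 0 in the smaller, with a median of 0.02. Of these, Pank3, a pantothenate kinase of coenzyme A synthesis, had 2103 and 2333 against 2527 and 2245 reads in the larger and 1341 and 1675 against 1332 and 1446 in the smaller table. Its sides overlapped in both. Ppp4r3b, a regulatory subunit of a protein phosphatase, had 1117 and 1238 against 1283 and 1245 reads in the larger table, with the numerator just lower, and its deposited log2 fold changes were -0.08 and 0.06. The last of the 4, the acylphosphatase gene Acyp2, was at -0.06 and -0.01.

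Dock2 is the guanine nucleotide exchange factor that drives leukocyte migration. Of the 5 blood or immune genes listed in the larger table, Dock2 was the 1 with enough reads for an adjusted p. It had 111 and 110 against 134 and 121 reads in the larger table and 85.1 and 84.6 against 97.7 and 114 in the smaller, with the numerator libraries lower in both. The authors' deposited log2 fold changes were -0.09 ± 0.12 and -0.13 ± 0.14, neither past the test. In bulk tissue, fewer cells of a type and less RNA per cell cannot be told apart. Beside Dock2, 3 of 7 tested leukocyte markers were below 0 in the deposited larger table and 5 of 7 in the smaller, with medians of 0.02 and -0.04, none of them with an unadjusted p under 0.05. Of the 6 markers of Kupffer cells, the resident macrophages of liver, 5 were below 0 in the deposited larger table and 6 in the smaller, with medians of -0.08 and -0.08, also with no p under 0.05. The part of either list in the Dock2 values was not tested.

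Of the 10 members that encode matrix proteins, ligands, receptors, or genes of nervous or epithelial tissue, 3 had enough reads for an adjusted p. Efemp1, a fibulin of the extracellular matrix, had 80.9 and 84.1 against 93.8 and 120 reads in the larger table, with the numerator lower, and 45.6 and 38.1 against 65.5 and 35.8 in the smaller, with overlap. Its deposited log2 fold changes were -0.13 ± 0.12 and -0.06 ± 0.12. Ranbp17, a relative of the nuclear transport receptors, was at 0.03 and -0.04 in the deposited tables. Kcnip1 encodes a calcium-binding partner of potassium channels known from neurons, yet it was among the members with the highest means. The authors' deposited tables give it 2422 and 8999 counts and log2 fold changes of -0.00 ± 0.10 and -0.14 ± 0.11 (unadjusted Wald p = 0.221 for the second, DESeq2). In the larger table its libraries had 2315 and 2531 against 2678 and 2162 reads and overlapped. Gm6685, a short gene outside these groups that shares 83.2% of its words with other annotated genes and is uncertain for that reason, had 175 and 197 against 230 and 202 reads in the larger table and a deposited log2 fold change of -0.12 ± 0.12. Gm6685 was too low for an adjusted p in the smaller.

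The members before and after Cpeb4 were distributed differently in the larger table, and the pattern was not the same in the smaller. Before Cpeb4, at lower coordinates, 14 of 17 tested members were below 0 in the authors' deposited larger table (median -0.06) and 8 of 16 in the smaller (median 0.00). After it, 7 of 14 were below 0 in the larger (median 0.01) and 9 of 13 in the smaller (median -0.04). By distance, the members under 1 Mb away were below 0 in 4 of 11 and 7 of 10 cases, with deposited medians of 0.03 and -0.03. At 1 to 2.5 Mb the counts were 10 of 12 and 6 of 12, with medians of -0.06 and -0.00, and at 2.5 to 5 Mb they were 7 of 8 and 4 of 7, with medians of -0.10 and -0.01. No band held a called member. The band nearest to Cpeb4 had the highest of the 3 medians in the larger table and the lowest in the smaller. These differences between bands and sides were not tested.

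Outside the window, 20 and 18 coding genes 5 to 10 Mb from Cpeb4 were tested. None had an unadjusted Wald p under 0.05 in the authors' deposited tables, beside 3.62% and 4.11% of all tested genes. Below 0 were 8 of the 20 and 6 of the 18, with medians of 0.02 and 0.04. The difference from the members was not tested. Genes called farther away on chromosome 11 included, in the deposited larger table, Srebf1, the sterol regulatory transcription factor gene, at a distance of 28.3 Mb, and the antisense gene BC018473, at 84.8 Mb. In the authors' deposited smaller table they included Tob1 at 62.3 Mb and G6pc, the glucose 6-phosphatase gene, at 69.4 Mb.

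No member passed a test of the difference between the tables. Smaller minus larger log2 fold change was tested per gene by a z test with Benjamini-Hochberg adjustment over 11604 genes, 0.0172% of which passed. Of the 28 members tested in both, 0 passed and 0 had an unadjusted p under 0.05. The signs of the authors' deposited fold changes matched in 13 of the 28. Among members tested and solved in both, the numerator libraries were all lower in both tables for 3 of 23, Wwc1, Pnpt1 and Dock2, beside 9.37% of all genes tested and solved in both. Mean counts, in contrast, shifted widely between the tables, which were normalised separately. Kcnip1 had 3.72 times the mean in the smaller table that it had in the larger, and Gm6685 had 0.0427 times.

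The remaining members were too thinly counted for an adjusted p. The 16 members without an adjusted p in either table include Slit3, a guidance ligand, Fgf18, a growth factor, and Gabrp, a GABA receptor subunit. In the larger table Slit3 had 7.28 and 5.53 against 6.36 and 4.18 normalised reads, and Fgf18 had 0.809 and 1.11 against 0.795 and 0. Gabrp had 2.43 and 5.53 against 3.98 and 0 in that table. Spdl1, which recruits dynein to kinetochores, had 4.85 and 4.43 against 7.95 and 9.76 normalised reads in the larger table. In the smaller table Spdl1 had 9.73 and 7.15 against 6.90 and 7.15. The uncharacterised 4930469K13Rik had 8.90 and 7.75 against 7.16 and 12.5 normalised reads in the larger table. Ccdc85a, 4930505A04Rik, Efcab9 and D130052B06Rik, with Gpr75, 4930524B15Rik, Nsg2, Il9r and the 3 globin genes, make up the rest. At such counts no difference between the sides was detectable.

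Nested genes were seldom listed. The window holds 60 annotated coding genes besides the 4 left out by the rule, and 12 of them were not analysed here because they have no row in the tables used. Of these, 7 lie wholly inside another coding gene. They include Chac2, which degrades glutathione, inside Asb3, the DNA repair gene Mpg inside Nprl3, and Lcp2, an adaptor of T cell signalling, inside 4930469K13Rik. Across the genome, of annotated coding genes that overlap no other gene, 73.0% were listed in the larger and 68.8% in the smaller table. Of those inside a coding gene on its strand, 5.19% (20 of 385) and 4.94% (19 of 385) were listed, and on the opposite strand 6.13% (33 of 538) and 5.02% (27 of 538). The plot of listed shares shows this drop for either strand. The member Erlec1 also lies inside Asb3, on the opposite strand, and is listed. How reads on overlapping genes were counted is not known from these files. The counts of hosts such as Nprl3, Asb3 and Kcnip1 may therefore hold reads of genes inside them.

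**Figure D4:**
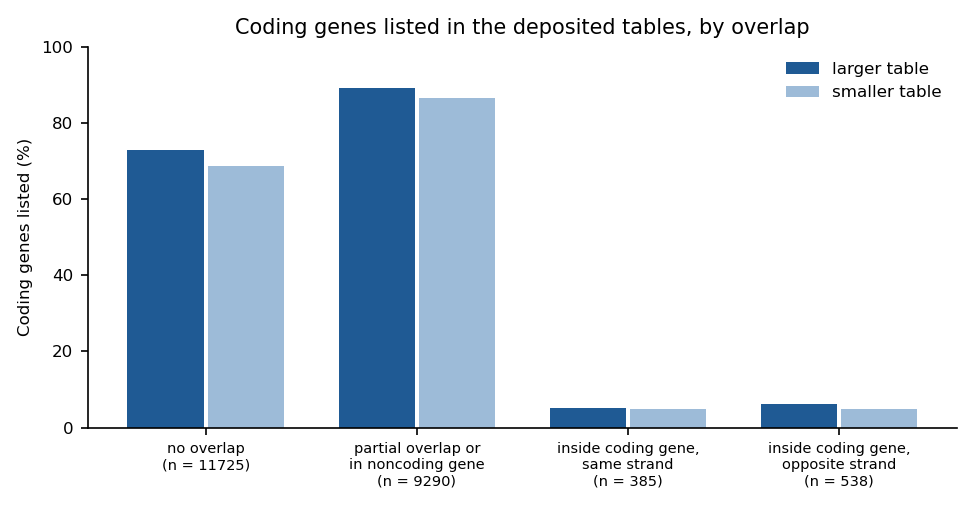
Percent of annotated protein-coding genes (GENCODE M21) that have a row in each deposited table, by how the gene overlaps others; bars start at 0 and there is one bar per table. Genes that lie inside another coding gene are listed in 4.94% to 6.13% of cases, against 68.8% to 73.0% of genes without overlap.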

How the data were processed

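RNA from mouse liver or isolated ER was sequenced in 8 libraries. The mm10 build, DESeq2 1.6.3 and STAR 2.3.0e stand, without roles, in the list per the submitters' processing notes. Annotation, counting tool and strand setting: not given in the sources used here. For each gene the authors deposited a mean signal (mean of counts divided by size factors), a log2 fold change and SE, a Wald score, a p-value and an adjusted p-value, per the file headers. There were 0 columns of other samples. Genes without an adjusted p-value were not counted as tested, although the members among them have a Wald p-value.

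Members were found by GENCODE M21 spans (GRCm38, the assembly of mm10), which matched 23484 of 23634 and 21080 of 21201 identifiers. Members and lists were chosen with earlier results of these data known. Named with values were members past adjusted or unadjusted 0.05, the 5 nearest on each side, and in each table the 5 with the largest change and the 5 with the highest mean. Other members were named with their role group, after their values were seen.

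Each deposited mean is a sum of whole reads times 4 single-read steps. Whole reads were solved from the 15 digits, a step added after the data were seen. A solution was kept where under 0.1 solutions were expected by chance. Above a mean of 30 counts, each library was searched only within 0.4 to 2.0 times the mean, and above 1200 within 0.75 to 1.3 times. Means over 3500 were not attempted. Genes whose libraries lay outside these limits could not be solved, so the shares without overlap leave them out. A solution was kept for 85.2% and 84.0% of tested genes. The log2 ratios of the solved reads had the sign of the deposited fold change for 99.1% and 99.5% of genes with means over 300 counts. PCR duplicates were not marked, so reads are not independent molecules. The table difference was a z test that treats the tables as independent, which libraries of the same mice would break. Other filters, windows, adjustments and scalings were tried. The steps were tested on simulated data. For the solving of reads, the simulated libraries of a gene shared a common mean, so genes with sides far apart were not covered. Python 3.11.15, pandas 2.3.3, numpy 2.4.6, scipy 1.17.1, numba 0.67.0 and matplotlib 3.10.9 were used.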

Additional observations from a re-analysis of the deposited data

How the results depend on the processing

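Of 64 alternative values, 60 kept a count within 1.5 times of the one reported, or a median within the members' median SE. This tally is a weak check, since some counts of 0 could not move. The median SE, 0.11 and 0.12, also exceeds the median size of the members' changes, 0.05 in both tables. A median could therefore change sign and still count as kept. No member was called in either table, and none differed between tables, under any filter, window, edge rule, adjustment or scaling run. Some of these runs could not have added a call. The 2.5 Mb window and the removal of members that share sequence with other genes only take genes away. Bonferroni adjustment is stricter than Benjamini-Hochberg, and in the smaller table the edge rule added no tested gene. With the statistics divided by their SD, 1 member of the larger table had a p under 0.05, against 0 as reported. Within 2.5 Mb, 0 members of the smaller table did, against 1, since Wwc1 lies farther away. Libraries did not overlap for 5 of 18 members of the larger table with a 2.5 Mb window, against 11 of 27 as reported and 37.3% of all tested genes solved, and for 14 of 40 of the smaller with a 10 Mb window, against 9 of 25 and 39.2%; both windows were applied to these counts after the data were seen. The moderated member median lay between -0.04 and -0.01 for the larger table and between -0.02 and 0.01 for the smaller. In the smaller table its sign therefore depends on the filter and window. On the unmoderated scale, over the 27 and 25 members solved, the medians were -0.10 and -0.04. No paired analysis was possible because the deposited tables hold no values per library, and the solved libraries carry no replicate number. The authors' test was not rerun without each library, since reads were solved for 85.2% and 84.0% of the tested genes only and no solved library is assigned to a sample. The median unmoderated log2 ratio of the members was recomputed without each solved library in turn, chosen after the data were seen, and lay between -0.12 and -0.08 for the larger table and between -0.07 and -0.03 for the smaller. What depth limits is not shown by the SE, which was 0.09 in the authors' larger table both for Rps27a at 7973 counts and for Ubtd2 at 30.3.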

Other observations

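The window also holds 78 annotated noncoding genes, of which the authors' deposited larger table lists 28 and the smaller 18. Of these, 7 and 5 had an adjusted p, 0 were called and 0 had an unadjusted Wald p under 0.05 (DESeq2). The lincRNA gene D630024D03Rik, chosen after its values were seen, had the lowest p of them in both of the authors' deposited tables, with log2 fold changes of -0.20 ± 0.10 (p = 0.0516) and -0.22 ± 0.13 (p = 0.0872). At the far edge of the window, the neural adhesion gene Tenm2 spans the boundary and is no member. Its deposited log2 fold change in the larger table was -0.03 ± 0.09 at a mean of 30.1 counts.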
